A study of Mus musculus with 12 samples.

Results

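The 10 genes described here are the E2F transcription factors E2f1 to E2f8 and their dimerization partners Tfdp1 and Tfdp2, taken by symbol from the 24982 genes listed in each of 12 RNA libraries. The RNA was that of splenic B lymphocytes from mice aged 6 weeks. WT mice (C57BL/J6) carried no transgene. Eμ-Myc mice carried the transgene that places Myc under the immunoglobulin heavy chain enhancer, which drives it in B cells. Eμ-Myc; PRPS2 KO mice carried the same transgene and lacked PRPS2, a phosphoribosyl pyrophosphate synthetase that supplies the precursor of nucleotide synthesis. Each group had 4 libraries, which the labels call biological replicates without naming the animals, so p-values measure the spread between these libraries. The labels describe neither how the Prps2 allele was made nor whether any mouse had a tumour. The members were grouped by their textbook roles into 3 activators (E2f1, E2f2 and E2f3), 3 classical repressors (E2f4, E2f5 and E2f6), 2 atypical repressors (E2f7 and E2f8) and 2 partners (Tfdp1 and Tfdp2, which encode DP1 and DP2). The genes lie on chromosomes 2 (E2f1), 4 (E2f2), 13 (E2f3), 8 (E2f4 and Tfdp1), 3 (E2f5), 12 (E2f6), 10 (E2f7), 7 (E2f8) and 9 (Tfdp2) and are annotated as protein-coding. All 10 were in the files and all 10 passed the filter on low values in each comparison.

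E2F proteins bind DNA together with a DP partner and control genes of DNA replication and cell division. In resting cells RB and its relatives p107 and p130 hold them inactive or turn them into repressors, and phosphorylation by cyclin-dependent kinases releases them. E2F4 and E2F5 act mostly with p107 and p130, E2F6 works without pocket proteins inside a Polycomb-type complex, and E2F7 and E2F8 bind DNA without DP and repress the genes the activators turn on. Myc is known to drive lymphocytes into the cell cycle.

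Summed coverage lay between 1277305.5 and 1885768.9 per library, and values below are coverage scaled between libraries, whose read depth is unknown. Prps2 was at 98.5 to 141 in WT, 200 to 289 in Eμ-Myc and 16.3 to 18.4 in the knockout libraries, matching the labels (log2 fold change of −3.79 against Eμ-Myc, limma adjusted p = 1.58e-05). Myc was at 227 to 348 in WT, 1567 to 2315 in Eμ-Myc, and 1105, 1728, 3034 and 3300 in knockout libraries 1 to 4. The summed coverage of 8 B cell markers was 15972 to 26241 in WT, 14408 to 18985 in Eμ-Myc and 10581 to 16434 in the knockout group, with all 8 markers above 0 everywhere. Knockout libraries 3 and 4 stood apart from 1 and 2. Their sums were 31.3 and 28.8 against 579 and 623 for 8 T cell markers, 21.0 and 20.9 against 490 and 361 for 6 NK cell markers, and 3009 and 1315.5 against 15367 and 11468 for 8 myeloid markers. The B cell sum itself was 10581 and 10986 in libraries 3 and 4, the lowest of all 12, against 16339 and 16434 in 1 and 2, and that of 6 plasma cell markers was 246 and 276 against 498 and 601 (507 to 729 in WT and 509 to 588 in Eμ-Myc). The sum of 8 erythroid genes was 94.2 to 134 in the knockout group, 93.2 to 519 in Eμ-Myc, 82.6 to 167 in WT libraries 1 to 3 and 857 in WT library 4. In WT the T cell, NK cell and myeloid sums were 471 to 2615, 326 to 1193 and 8205 to 24636. In Eμ-Myc they were 98.9 to 142, 87.9 to 209 and 5701 to 16748. No marker of these lists was at 0 in any library. In RNA from a mixed sample, fewer cells of a type and less RNA per cell cannot be told apart.

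RefSeq promoter windows (GRCm38.p6, from 250 bases before to 50 after the annotated start) were at hand for 8 of the 10 genes, 12 windows in all; E2f4 and E2f5 had none. Windows were searched on both strands for the E2F words TTTCGCGC, TTTGGCGC, TTTCCCGC and TTTGCCGC and for the E-box CACGTG, the core word bound by MYC with MAX. An E2F word was in 5 of the 12 windows, against 2.3% of all 32851 windows of this length. The 5 belong to 4 members, E2f2, E2f3, E2f7 and Tfdp1, since 2 overlapping Tfdp1 windows hold the same site. The E-box was in 2 of the 12 windows, of E2f3 and Tfdp1, against 7.2% of all windows. The background windows were not matched for GC content, which was 75.3% in the E2f7 window and 78.0% and 80.7% in those of Tfdp1. No enrichment is therefore read from either share. E2f1, E2f6, E2f8 and Tfdp2, whose windows held no E2F word, rose in Eμ-Myc cells as the other 4 did (below). The E2f1 window (chr2:154569377-154569676, − strand) lay wholly inside the GENCODE M21 gene body, 154559407 to 154569892. So did the Tfdp2 windows, which begin at 96258455 and 96258998 in a gene (+ strand) that spans 96196275 to 96323646. For E2f1 and Tfdp2 the region at the outermost start was therefore not searched, and nothing is read from the lack of a word. Shown is 1 window for each of the 4 members with an E2F word, chosen for holding it. Each is written on the gene's strand with E2F words and the E-box in capitals. They lie at chr4:136172024-136172323 (E2f2, + strand), chr13:29986014-29986313 (E2f3, − strand), chr10:110745189-110745488 (E2f7, + strand) and chr8:13338501-13338800 (Tfdp1, + strand).
E2f2: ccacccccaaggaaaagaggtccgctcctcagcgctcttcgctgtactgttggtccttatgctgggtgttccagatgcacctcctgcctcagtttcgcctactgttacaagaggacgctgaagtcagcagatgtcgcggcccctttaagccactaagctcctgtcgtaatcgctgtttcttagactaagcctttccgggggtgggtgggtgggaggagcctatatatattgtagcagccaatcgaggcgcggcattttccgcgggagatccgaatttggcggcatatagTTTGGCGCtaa
E2f3: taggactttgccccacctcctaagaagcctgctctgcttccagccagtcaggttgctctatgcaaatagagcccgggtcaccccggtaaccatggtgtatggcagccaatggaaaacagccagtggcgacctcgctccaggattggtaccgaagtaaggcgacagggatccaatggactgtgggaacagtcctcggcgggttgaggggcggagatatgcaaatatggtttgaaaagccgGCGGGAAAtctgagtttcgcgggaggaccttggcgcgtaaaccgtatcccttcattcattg
E2f7: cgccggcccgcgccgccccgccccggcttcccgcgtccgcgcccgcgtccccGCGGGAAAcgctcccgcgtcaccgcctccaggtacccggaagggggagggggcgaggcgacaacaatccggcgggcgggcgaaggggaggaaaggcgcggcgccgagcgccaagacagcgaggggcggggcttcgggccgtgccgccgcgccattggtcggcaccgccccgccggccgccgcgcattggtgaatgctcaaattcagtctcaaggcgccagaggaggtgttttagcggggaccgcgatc
Tfdp1: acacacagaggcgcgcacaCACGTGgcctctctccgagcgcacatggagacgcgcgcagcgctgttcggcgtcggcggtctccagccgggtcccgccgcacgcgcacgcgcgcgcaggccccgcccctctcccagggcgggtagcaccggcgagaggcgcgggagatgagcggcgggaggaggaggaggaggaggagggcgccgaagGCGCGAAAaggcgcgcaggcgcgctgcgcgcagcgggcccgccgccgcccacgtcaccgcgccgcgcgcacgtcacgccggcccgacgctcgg
The word in the E2f2 window begins 40 bases downstream, counting the start as 1, and that of E2f3 11 bases, that of E2f7 198 bases and that of Tfdp1 43 bases upstream of the start. In E2f3, E2f7 and Tfdp1 the word reads on the other strand, as GCGGGAAA, GCGGGAAA and GCGCGAAA. The E-box of Tfdp1 begins 231 bases upstream, and that of E2f3 is in another window of the gene, 24 bases upstream of a second start. A match is a description of letters, not of binding, and the lack of a match in the windows of E2f1, E2f6, E2f8 and Tfdp2 concerns these words and windows only.

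The 3 activators were all higher in Eμ-Myc than in WT B cells. E2f1, an activator of replication genes that at high activity is also known to promote apoptosis, was at 25.2, 23.6, 17.7 and 18.8 in WT, 76.0, 91.9, 81.6 and 81.4 in Eμ-Myc and 45.7, 60.2, 106 and 101 in the knockout libraries. Every Eμ-Myc library was above every WT library, while the knockout libraries lay on both sides of Eμ-Myc. The mean rose from 21.3 ± 3.65 to 82.7 ± 6.66 (SD, n = 4 each), a log2 fold change of 1.94 with a standard error of 0.14 (limma, adjusted p = 5.69e-06). E2f2, an activator with known roles in lymphocytes and maturing red cells, was at 127, 134, 109 and 79.1 in WT, 309, 325, 323 and 353 in Eμ-Myc and 199, 263, 356 and 368 in the knockout group. The WT and Eμ-Myc libraries did not overlap, and the log2 fold change was 1.57 ± 0.16 (SE, adjusted p by limma = 4.45e-05). E2f3, which with the other two drives entry into S phase, was at 19.8, 26.5, 26.7 and 18.7 in WT, 47.3, 41.3, 48.6 and 52.3 in Eμ-Myc and 32.9, 35.8, 63.3 and 66.0 in the knockout group. Its groups were likewise apart between WT and Eμ-Myc, with a smaller log2 fold change of 1.05 ± 0.15 (SE, adjusted p by limma = 3.29e-04). The ratio of means was 3.88 for E2f1, 2.92 for E2f2 and 2.07 for E2f3.

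Of the classical repressors, E2f4 and E2f6 rose and E2f5 did not pass the test. E2f4, the usual partner of p107 and p130 in resting cells, was at 89.6, 95.1, 81.4 and 93.1 in WT, 145, 160, 163 and 163 in Eμ-Myc and 108, 143, 204 and 206 in the knockout libraries. WT and Eμ-Myc did not overlap, and the log2 fold change of 0.81 ± 0.09 (SE, adjusted p by limma = 7.85e-05) was the smallest among the members that were called. E2f6, the Polycomb-linked repressor, was at 31.2, 27.5, 28.4 and 29.0 in WT, 53.8, 54.9, 60.2 and 63.8 in Eμ-Myc and 43.6, 52.2, 72.7 and 78.1 in the knockout group. It too was separated between WT and Eμ-Myc, with a log2 fold change of 0.99 ± 0.10 (SE, adjusted p by limma = 4.33e-05). E2f5 was at 13.5, 15.6, 14.0 and 16.4 in WT, 12.7, 16.6, 15.5 and 13.6 in Eμ-Myc and 12.3, 13.3, 19.3 and 21.0 in the knockout group. The WT and Eμ-Myc values overlapped, with a log2 difference of −0.03 and a 95% interval from −0.34 to 0.28 (limma adjusted p = 0.881). Exons of E2f5 overlap those of 1810022K09Rik on the other strand (GENCODE M21, chromosome 3, gene body 14578641 to 14606309), a gene at 124 to 160 in WT, 175 to 294 in Eμ-Myc and 132, 148, 359 and 320 in the knockout libraries. Whether the counting used strand is not given in the sources used here, so the E2f5 value is uncertain.

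The 2 atypical repressors had the largest fitted increases of the 10 genes. E2f7 was at 3.87, 1.32, 1.89 and 1.80 in WT, 20.2, 14.5, 19.9 and 25.5 in Eμ-Myc and 12.4, 16.2, 27.3 and 26.4 in the knockout libraries. No Eμ-Myc library came near the WT range, and the log2 fold change was 2.97 ± 0.28 (SE, adjusted p by limma = 3.25e-05), on a scale with 0.5 added, which understates the change of a gene this low in WT. E2f8, which acts alongside E2F7 on the same genes, was at 29.1, 8.86, 12.4 and 15.1 in WT, 102, 79.4, 107 and 111 in Eμ-Myc and 64.0, 79.3, 138 and 148 in the knockout group. Its log2 fold change was 2.70 ± 0.31 (SE, adjusted p by limma = 1.10e-04), with no overlap of WT and Eμ-Myc. For both genes WT library 1 was the highest of its group, as it was for the sums of myeloid markers and of the 18 G2/M genes below (604 against 271 to 338 in the other WT libraries). Without that library the log2 fold changes were 3.23 and 3.01. Exons of E2f7 and E2f8 also overlap genes of the other strand, 1700020G17Rik, listed at 0 in every library, and Gm2788, at 0.225 to 1.45.

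Tfdp1 encodes DP1, the major partner of the E2F proteins. It was at 334, 173, 177 and 229 in WT, 953, 919, 1153 and 1151 in Eμ-Myc, and 586, 781, 1559.5 and 1535 in the knockout libraries. All Eμ-Myc libraries were far above WT, a log2 fold change of 2.24 ± 0.20 (SE, adjusted p by limma = 2.63e-05), and the ratio of means was 4.58. Tfdp2, which encodes the other partner, was at 36.6, 44.0, 48.7 and 41.6 in WT, 89.2, 64.6, 87.9 and 100 in Eμ-Myc and 69.4, 73.1, 99.5 and 110 in the knockout group. Its increase was a log2 fold change of 0.98 ± 0.15 (SE, adjusted p by limma = 4.95e-04), again without overlap between WT and Eμ-Myc. The interval of the Tfdp1 change, 1.78 to 2.70, lay above that of Tfdp2, 0.65 to 1.32; the difference between the genes was not tested.

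**Figure D1:**
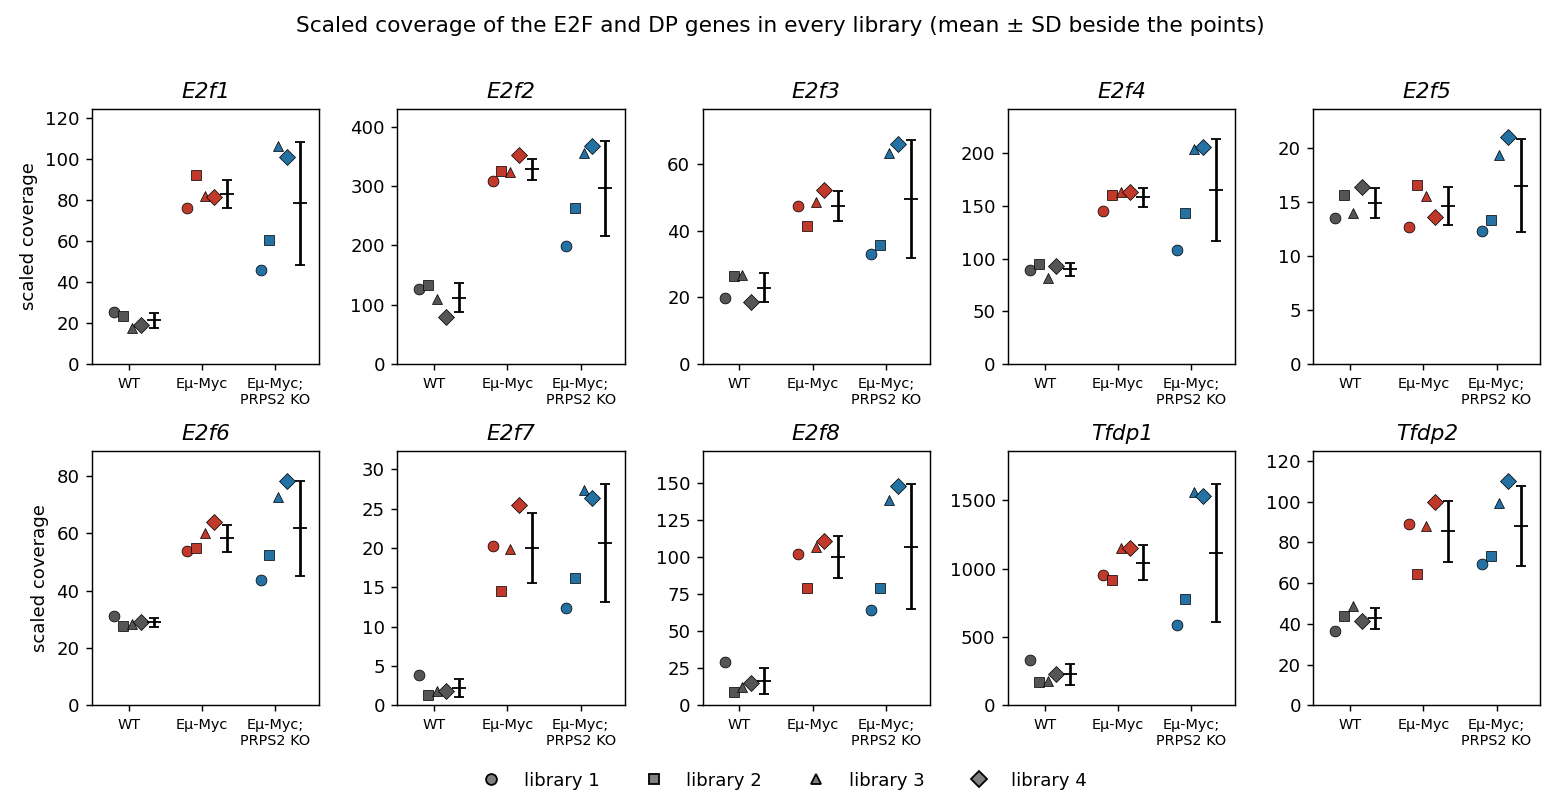
Scaled coverage (vertical axes, each from 0) of the 10 genes in the 4 libraries of WT (grey), Eμ-Myc (red) and Eμ-Myc; PRPS2 KO (blue), with a marker shape for each library number and bars for the mean ± SD. In all genes but E2f5 the Eμ-Myc points lie above every WT point, and in all 10 knockout libraries 3 and 4 lie above 1 and 2.

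Between Eμ-Myc and WT, 9 of the 10 members rose, none fell, and 9 had libraries that did not overlap. Over all 12723 genes tested, 30.4% were called higher, 24.7% lower and 55.1% in either direction, and 28.7% had every Eμ-Myc library above every WT library. The median log2 fold change of the 10 members was 1.31 against −0.01 over all genes tested. The call of each of these 9 genes held in all 16 alternative settings, E2f7 with the widest range of log2 fold changes, 2.40 to 3.23.

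The knockout libraries did not form a single level for any member. In all 10 genes libraries 3 and 4 were above 1 and 2, by 1.47 times for Tfdp2 to 2.26 times for Tfdp1, a pattern that 46.0% of all tested genes had. In 7 members (E2f1, E2f2, E2f3, E2f4, E2f6, E2f8 and Tfdp1) libraries 1 and 2 lay below every Eμ-Myc library and 3 and 4 above every one, which held for 16.9% of tested genes. In the same 7 members libraries 1 and 2 also lay above every WT library, an intermediate level seen in 14.3% of tested genes. Libraries 3 and 4 were above every Eμ-Myc library in 9 members, Tfdp2 being the exception, against 32.4% of tested genes. These patterns were chosen after the values were seen. The same libraries 3 and 4 had the highest Myc and the lowest T cell, NK cell, myeloid, B cell and plasma cell marker sums given above, and the part of any of these in the levels of the members was not tested.

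No member passed the test between the Eμ-Myc; PRPS2 KO and Eμ-Myc groups. By limma 0 of 10 passed, 0 had an unadjusted p under 0.05 and 0 had groups without overlap. Over the 12575 genes tested, 0.00795% were called (1 gene, Prps2), 0.962% had an unadjusted p under 0.05 and 1.53% had groups without overlap. The log2 differences ran from −0.19 for E2f2 to 0.14 for E2f5, 5 positive and 5 negative, with a median of 0.01 against −0.03 over all genes. The 95% intervals were wide: −0.78 to 0.46 for E2f1, −0.65 to 0.28 for E2f2, −0.57 to 0.57 for E2f3, −0.48 to 0.51 for E2f4, −0.33 to 0.61 for E2f5 and −0.40 to 0.49 for E2f6. For E2f7 the interval was −0.67 to 0.66, for E2f8 −0.62 to 0.68, for Tfdp1 −0.77 to 0.73 and for Tfdp2 −0.43 to 0.49. The standard deviation of log2 coverage of E2f1 was 0.586 in the knockout group and 0.113 in Eμ-Myc. The outcome depended on the knockout libraries used: without knockout libraries 1 and 2, limma called 5 members higher (E2f3 by 0.45, E2f4 by 0.38, E2f6 by 0.37, E2f8 by 0.53 and Tfdp1 by 0.58 on the log2 scale), and without 3 and 4 it called 0, with log2 differences of −0.65 for E2f1, −0.52 for E2f2 and −0.62 for Tfdp1. Of all genes tested, 12.2% were called higher and 16.3% lower without libraries 1 and 2, and 2.26% higher and 1.95% lower without 3 and 4. With library quality weights, which gave knockout libraries 1 and 2 weights of 0.082 and 0.129 and libraries 3 and 4 weights of 3.19 and 7.73, 9 members were called higher, by 0.23 to 0.46, and E2f2 was not (adjusted p = 0.123). Under these weights 31.1% of all genes were called higher and 28.2% lower.

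Against WT, the knockout group had the same 9 members higher, none lower and 9 without overlap. Over the 12710 genes tested, 19.7% were called higher, 9.58% lower and 29.3% in either direction, and 22.2% had every knockout library above every WT library. The log2 fold change was 1.78 ± 0.29 (SE, adjusted p = 0.0106) for E2f1, 1.38 ± 0.25 (0.0122) for E2f2 and 1.04 ± 0.27 (0.0307) for E2f3. It was 0.83 ± 0.22 (adjusted p = 0.0312) for E2f4 and 1.03 ± 0.19 (0.0146) for E2f6, while E2f5 did not pass at 0.11 ± 0.21 (0.666). For E2f7, E2f8, Tfdp1 and Tfdp2 it was 2.96 ± 0.36 (0.00926), 2.72 ± 0.40 (0.00998), 2.22 ± 0.37 (0.0109) and 1.01 ± 0.18 (0.0119). The 2 comparisons with WT share its libraries, and the 2 with Eμ-Myc share those. The calls of E2f3 and E2f4 ended when any 1 WT library was left out (adjusted p of 0.0685 to 0.0766 and 0.0636 to 0.0846), without knockout library 3 (0.0846 for both) or 4 (0.0858 and 0.0883), without both (0.101 and 0.0895, with log2 fold changes of 0.59 and 0.47), and with the replicate number as a block (0.0523 and 0.0559); E2f6 missed at 0.0518 without WT library 2 or 3. E2f5, by contrast, became a call with quality weights (0.45, limma adjusted p = 0.00278) and without knockout libraries 1 and 2 (0.43, 0.0331). In order of level, WT was below both transgenic groups for 9 members, and the 2 transgenic groups were not separated beyond their spread for any.

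**Figure D2:**
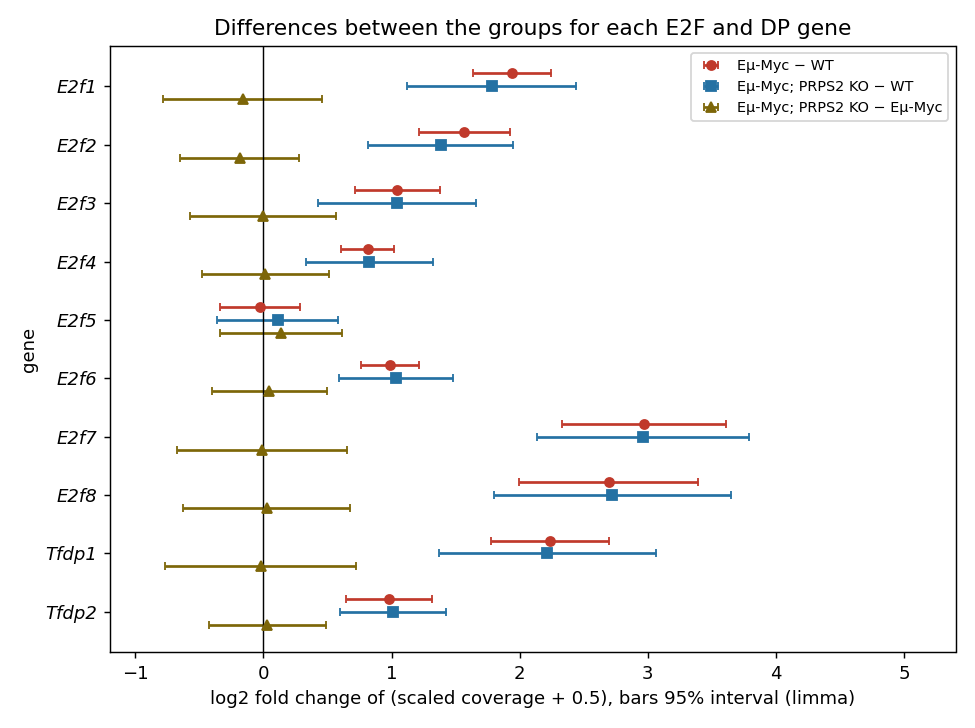
Log2 fold change of scaled coverage + 0.5 (horizontal axis) of each gene for Eμ-Myc minus WT (red circles), Eμ-Myc; PRPS2 KO minus WT (blue squares) and Eμ-Myc; PRPS2 KO minus Eμ-Myc (brown triangles), 4 libraries a group, with bars for the 95% interval from limma. Both comparisons with WT lie right of 0 for every gene but E2f5, and all 10 intervals of the knockout against Eμ-Myc span 0.

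Activators were then set against repressors inside each library, where the scaling cancels; these ratios were chosen with the values known and carry no test. Summed activator coverage divided by summed classical repressor coverage was 1.28, 1.33, 1.24 and 0.841 in WT, 2.04, 1.98, 1.90 and 2.02 in Eμ-Myc, and 1.70, 1.73, 1.77 and 1.75 in the knockout libraries. The 3 groups did not overlap, with the knockout libraries between the others and close to each other in spite of their spread in level. WT library 4, the lowest, was also the WT library with the highest sums of T cell markers (2615), of NK cell markers (1193) and of erythroid genes (857), whose part in the ratio was not tested. A sum weights each gene by its deposited coverage, and whether that was divided by gene length is not stated, so the sums and ratios are compared between libraries only. Most of the activator sum was E2f2, with an Eμ-Myc mean of 328 beside 82.7 for E2f1 and 47.4 for E2f3. Most of the classical repressor sum was E2f4, at 158 beside 14.6 for E2f5 and 58.2 for E2f6. The summed ratio thus mainly follows E2f2 over E2f4 and is not read as a shift of the whole class. Weighting genes equally, the mean log2 coverage of activators minus that of classical repressors was −0.22 to 0.34 in WT, 1.01 to 1.14 in Eμ-Myc and 0.78 to 1.01 in the knockout group, where library 3 reached the Eμ-Myc range.

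Of the 9 ratios of 1 activator to 1 classical repressor, 7 were higher in every Eμ-Myc than in every WT library; the exceptions were E2f3 over E2f4 and E2f3 over E2f6. For comparison, 9.02% of all tested genes had a higher ratio to E2f4 in every Eμ-Myc library, 27.6% to E2f5 and 6.40% to E2f6. Seen from the activators, 89.5%, 83.4% and 65.4% of genes had a lower ratio to E2f1, E2f2 and E2f3 in every Eμ-Myc library. The activators thus rose relative to most genes, and 7 of 9 is not read as particular to the classical repressors. In the knockout group 2 of the 9 ratios were below every Eμ-Myc library and 0 above. E2f2 over E2f4 was 1.42, 1.41, 1.34 and 0.849 in WT, 2.13, 2.03, 1.99 and 2.16 in Eμ-Myc and 1.85, 1.85, 1.74 and 1.79 in the knockout libraries. E2f2 over E2f6 was 4.07, 4.87, 3.83 and 2.72 in WT, 5.74, 5.93, 5.37 and 5.54 in Eμ-Myc and 4.57, 5.04, 4.90 and 4.71 in the knockout libraries. Both ratios were below every Eμ-Myc library in knockout libraries 1 and 2 as in 3 and 4. Against WT, E2f2 over E2f4 was above every library, while E2f2 over E2f6 in knockout libraries 1 and 4 was below WT library 2. A ratio to E2f4 lower in every knockout than in every Eμ-Myc library was found for 0.557% of tested genes, and to E2f6 for 0.668%. Seen from E2f2, the share was larger: 7.04% of tested genes had a higher ratio to E2f2 in every knockout than in every Eμ-Myc library. E2f1 over E2f4, by contrast, was 0.422 to 0.521 in the knockout group and 0.498 to 0.573 in Eμ-Myc, which overlap.

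The summed coverage of the atypical repressors was higher relative to that of each other class in Eμ-Myc than in WT. Their sum divided by that of the classical repressors was 0.245, 0.0737, 0.115 and 0.122 in WT, 0.578, 0.405, 0.530 and 0.567 in Eμ-Myc and 0.466, 0.458, 0.557 and 0.573 in the knockout libraries. Their sum divided by that of the activators was 0.0553 to 0.192 in WT, 0.205 to 0.283 in Eμ-Myc and 0.266 to 0.327 in the knockout group. Both ratios separated WT from Eμ-Myc and neither separated the 2 transgenic groups. Taken gene by gene, 11 of the 12 ratios of E2f7 or E2f8 to E2f1 to E2f6 were higher in every Eμ-Myc library than in every WT library. The exception was E2f8 over E2f1, at 0.376 to 1.15 in WT and 0.864 to 1.36 in Eμ-Myc, which overlapped. Divided by E2f1, E2f2 or E2f3 in the same way, 1.99%, 2.74% and 4.95% of all genes were higher without overlap. Within the class, E2f8 over E2f7 was 6.55 to 8.38 in WT and lower, 4.36 to 5.46, in Eμ-Myc.

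**Figure D3:**
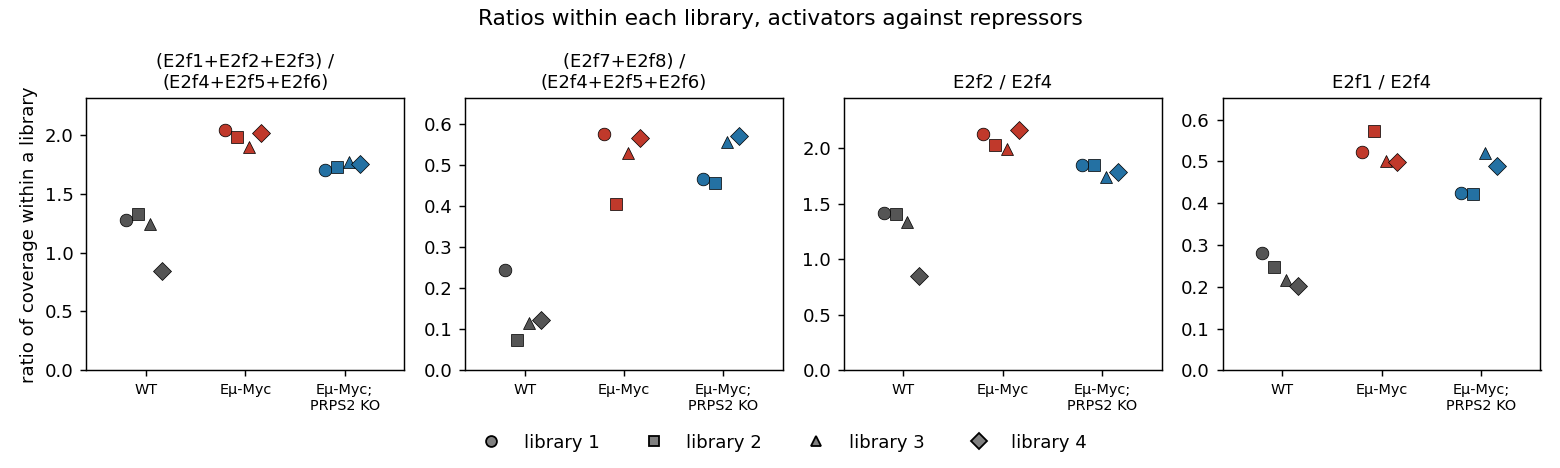
Ratio of coverage within a library (vertical axes, from 0) for activators over classical repressors, atypical over classical repressors, E2f2 over E2f4 and E2f1 over E2f4, with 1 point per library and a marker shape for each library number. E2f2 over E2f4 lies at 1.99 to 2.16 in Eμ-Myc and at 1.74 to 1.85 in the knockout group, above WT at 0.849 to 1.42, while E2f1 over E2f4 overlaps between the transgenic groups.

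Among 16 cyclins, kinases and inhibitors that act upstream of RB, 10 rose in Eμ-Myc against WT, 2 fell and 4 did not pass, with a median log2 fold change of 0.83. Over all genes tested 30.4% were called higher and 24.7% lower, with a median of −0.01. Those with the smallest adjusted p were Cdkn2a, which encodes the inhibitor INK4a and the p53 activator ARF, at 3.59 ± 0.21, the cyclin D kinase Cdk4 at 1.72 ± 0.11 and cyclin E1 (Ccne1) at 2.64 ± 0.17 (log2, SE; limma adjusted p of 2.94e-06, 4.01e-06 and 4.63e-06). The 2 that fell were cyclin D2 (Ccnd2, −1.53) and the inhibitor p27 (Cdkn1b, −0.79). In the knockout group against WT, 9 rose and 3 fell (12 calls, against 7 without WT library 2 or 3 or knockout library 3 or 4), led by Cdkn2a at 2.99, Ccne2 at 3.35 and the p27 ubiquitin ligase subunit Skp2 at 2.08. Of all genes 19.7% were called higher and 9.58% lower in that comparison. None of the 16 passed against Eμ-Myc, where the median was −0.07.

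Of 11 pocket proteins and MuvB partners, 6 rose and 1 fell in Eμ-Myc, with a median of 0.48; the 7 calls of 11 stand beside 55.1% of all genes called. The call with the smallest adjusted p was Mybl2 (2.93 ± 0.16), followed by Foxm1 (2.50 ± 0.22), the 2 transcription factors that join MuvB late in the cycle, and by the histone chaperone Rbbp4 (1.13 ± 0.10; limma adjusted p of 2.22e-06, 1.98e-05 and 2.34e-05). The pocket proteins themselves went separate ways: p107 (Rbl1) rose by 0.88, p130 (Rbl2) had a log2 fold change of −0.79 and was the 1 that fell, and Rb1 did not pass at −0.21 (adjusted p of 0.00306, 0.00170 and 0.281). In the knockout group 6 rose and 0 fell against WT (2 calls without any 1 WT library or without knockout library 3 or 4), led by the same 3 genes (Foxm1 2.55, Mybl2 2.78 and Rbbp4 1.00), beside 19.7% of all genes called higher and 9.58% lower, and none of the 11 passed against Eμ-Myc (median 0.05). Rbl2 was at 116 and 121 in knockout libraries 1 and 2 and at 70.0 and 69.8 in 3 and 4, a split opposite to that of the E2F genes.

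Of 12 partners of E2F6 in its repressor complex, 5 rose and 1 fell in Eμ-Myc, with a median of 0.07 against −0.01 over all genes; 6 calls of 12 are no more than the 55.1% of all genes called, so the count says nothing about these partners as a list. The histone deacetylase Hdac2 rose by 1.05 ± 0.12, the heterochromatin protein Cbx3 by 1.17 ± 0.13 and Wdr5 by 0.89 ± 0.11 (limma adjusted p of 7.29e-05, 7.66e-05 and 1.14e-04), and Rybp was the 1 that fell, with a log2 fold change of −0.73. The same 3 led the 4 that rose against WT in the knockout group (Cbx3 1.12, Hdac2 1.08, Wdr5 0.99), a count that was 0 without any 1 WT library or without knockout library 3 or 4, and none passed against Eμ-Myc (median 0.03). Of all genes, 29.3% were called in that comparison with WT, and nothing is read from 4 of 12. Of 5 germline genes that E2F6 is known to silence, all listed in the files, only Stag3 passed the filter on low values, at 0.754 to 1.81 in WT, 1.24 to 1.92 in Eμ-Myc and 1.15 to 2.57 in the knockout group, and it was not called in the 3 comparisons as fitted without weights. With library quality weights it was called higher in the knockout group, by 0.62 against Eμ-Myc and 0.88 against WT on the log2 scale.

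All 43 genes of a G1/S target list (replication licensing, polymerases, nucleotide synthesis) rose in Eμ-Myc, with a median of 2.25, led by the ligase Lig1 (2.66 ± 0.10), the methyltransferase Ezh2 (2.25 ± 0.10) and Uhrf1 (3.35 ± 0.15; limma adjusted p of 1.30e-06, 1.52e-06 and 1.52e-06). Of all genes, 30.4% were called higher in that comparison, and 19.7% in the knockout group against WT. All 43 were also higher in the knockout group than in WT, with a median of 2.12, led by Uhrf1 (3.33) and the licensing factors Cdc6 (3.06) and Mcm10 (3.31). The count against WT fell to 35, 33, 30 and 37 without WT library 1, 2, 3 or 4, and to 35 and 34 without knockout library 3 or 4. Over all genes the calls in either direction fell from 3718 to 884, 613, 601 and 1260 and to 706 and 641 in the same fits. Against Eμ-Myc none of the 43 passed; 36 log2 differences were negative and 7 positive, with a median of −0.12 against −0.03 for all genes. The summed coverage of the list was 2473 to 2629 in WT, 9793 to 12191 in Eμ-Myc, and 5795, 7598, 15533 and 15550.0 in knockout libraries 1 to 4, the same split as for the E2F genes.

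All 18 G2/M genes of the MuvB program rose in Eμ-Myc (median 2.96), led by the mitotic kinase Aurkb (2.87 ± 0.17), the APC/C activator Cdc20 (2.96 ± 0.20) and the kinesin Kif20a (2.94 ± 0.23; limma adjusted p of 2.84e-06, 5.41e-06 and 1.17e-05). All 18 also rose in the knockout group against WT (median 2.98; Top2a 3.17, Aurkb 2.82 and Mki67 3.09), and none passed against Eμ-Myc (median −0.03). The counts of 18 stand beside 30.4% and 19.7% of all genes called higher in the Eμ-Myc and knockout groups against WT. Their summed coverage was 271 to 604 in WT, 2441 to 3419 in Eμ-Myc and 1375, 2126, 4634 and 4502 in the knockout libraries. All 5 lists changed their counts with the knockout libraries used, as for the members: without libraries 1 and 2, limma called 30 of 43 G1/S and 13 of 18 G2/M genes higher than in Eμ-Myc and none lower, and without 3 and 4 it called 21 and 3 lower and none higher. The shares of all genes were 12.2% called higher in the first case and 1.95% called lower in the second. The medians were 0.50 and 0.69 in the first case and −0.76 and −0.71 in the second.

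**Figure D4:**
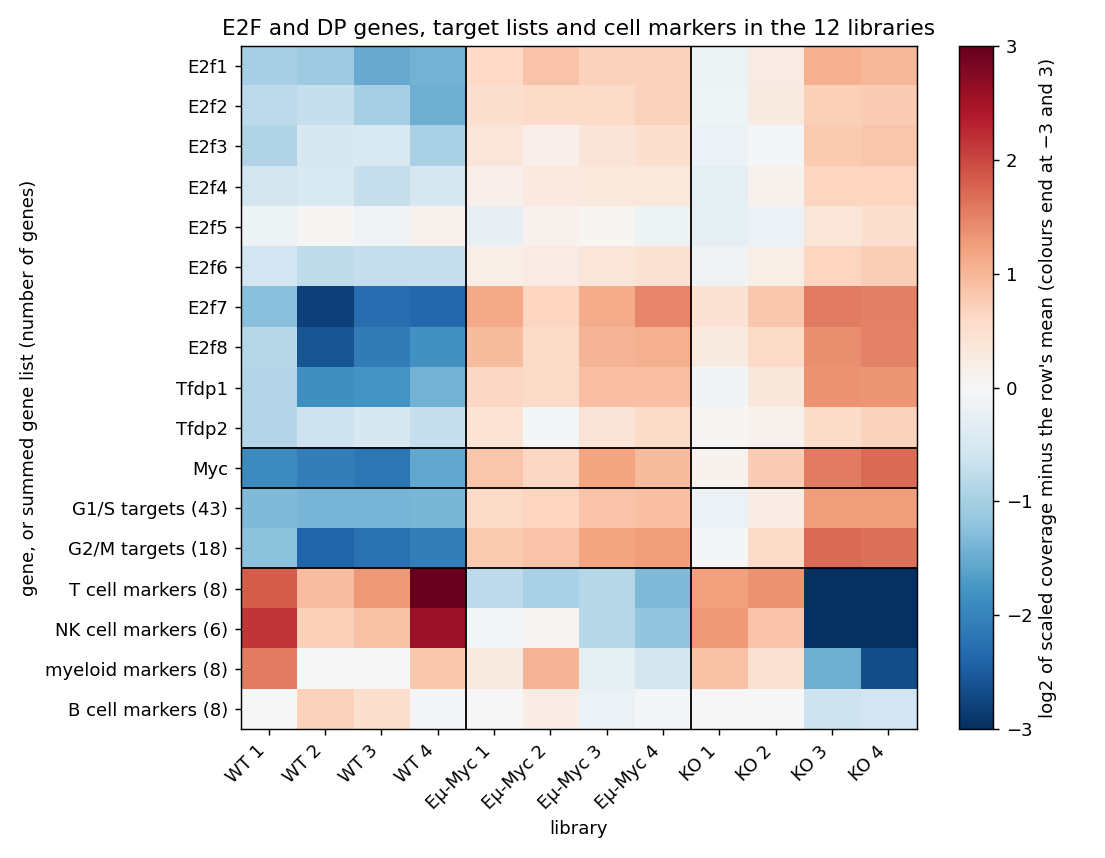
Log2 scaled coverage minus the mean of the row (colour, blue low and red high, ending at −3 and 3) for the E2F and DP genes, Myc, the summed target lists and the summed cell type markers in each of the 12 libraries, where KO stands for Eμ-Myc; PRPS2 KO. Knockout libraries 3 and 4 are high for the members and targets and low for T cell (31.3 and 28.8), NK cell, myeloid and B cell markers (10581 and 10986), and libraries 1 and 2 lie below them for the members and targets and above them for these 4 marker sums.

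Each member was last compared with 9663 genes of mean scaled coverage of at least 8 (Gm and Rik symbols left out) by the mean absolute difference of centred log2 values over the 12 libraries, so that 0 is an identical profile. The libraries are shared by all genes, so this is a description of likeness. E2f7 and E2f8 were close to each other: E2f7 was the nearest of all genes to E2f8 (0.131), followed by Troap and Neil3 (both 0.132), and E2f8 was the third nearest to E2f7 after the centriole gene Stil (0.111) and the mitotic kinesin Kif18b (0.131). The median difference over all genes was 1.29 for E2f7 and 1.18 for E2f8. Tfdp1 lay nearest the mitotic genes Dlgap5 (0.077), Tacc3 (0.087) and Incenp (0.087), with a median of 0.97 over all genes.

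The activators had other neighbours, and none of them was another E2F gene. E2f1 lay nearest Ppil1 (0.082), Eef1akmt4 (0.092) and Eef1akmt4-ece2 (0.094), the last of which is a readthrough gene that shares exons with Eef1akmt4. E2f2 lay nearest the DNA repair scaffold Xrcc1 (0.118), the aspartate aminotransferase Got1 (0.130) and Hspa2 (0.134), and E2f3 nearest Prep (0.064), Pus10 (0.072) and Zfp367 (0.073). E2f4 lay nearest Farsa (0.038), Pcbp1 (0.042) and Tra2b (0.042), and E2f6 nearest Hnrnpa3 (0.065), Ctc1 (0.067) and Ptbp1 (0.068). E2f4 and E2f6 were the closest pair among the 10 members (0.095), and E2f5 and E2f7 the farthest (1.299). E2f5 lay nearest Hspbap1 (0.070), Zfp639 (0.074) and Rrp36 (0.079), and Tfdp2 nearest Dgcr8 (0.070), Mtbp (0.078) and Ecpas (0.083).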

How the data were processed

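Polyadenylated RNA of splenic B lymphocytes was made into directional libraries, per the labels. As the labels and values show, the authors deposited mean coverage per gene, a signal with 1 decimal, in 1 file per library; 91.6% of values above 0 were not whole, so no count test was used. The submitters' processing notes name DESeq, R 4.3.3 and build mm10; the aligner, the counting and the annotation are not given in the sources used here. Whether coverage was divided by gene length is not stated, so levels of different genes were not ranked. Read depth is unknown, and precision was taken from the spread between libraries.

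Coverage was scaled by an unweighted trimmed mean of log ratios (30% of ratios and 5% of mean values trimmed). A gene entered a comparison if 4 or more of its 8 libraries had scaled coverage of 1 or more, and was tested with limma 3.58.1 in R 4.3.3 on log2(scaled coverage + 0.5), with a trended, robust prior, two-sided, and Benjamini-Hochberg adjustment over all genes tested. An adjusted p under 0.05 was a call. The script was tested on simulated data with 200 changed genes. For Eμ-Myc against WT it recovered 76% of log2 changes of 1 and 90% of log2 changes of 2. For the knockout against Eμ-Myc it recovered 48% and 69%, so real changes of these sizes can be missed there. False calls were 5.1% and 6.4% of all calls in these comparisons. Each simulated pair of groups took the spread of the first-named group. Tables used Python 3.11.15, pandas 2.3.3 and numpy 2.4.6, and figures matplotlib 3.10.9. Named genes were all 10 members, Prps2 and Myc, the 3 called genes with the smallest adjusted p from each pathway list, and the 3 genes with the most similar profile to each member; other genes (Rb1, Rbl1, Rbl2, Ccnd2, Cdkn1b, Rybp, Stag3, and genes overlapping a member) were named after their values were seen. The members and lists were chosen with earlier results of these data known. The replicate number served as a block in an alternative. Deviations of same-numbered knockout and Eμ-Myc libraries from their group means had r of 0.655, 0.193, 0.252 and 0.605 across genes. For the knockout and WT r was 0.397, −0.422, 0.136 and −0.064, and for Eμ-Myc and WT 0.229, −0.097, 0.264 and 0.135. Libraries of unlike number were not compared, so these values cannot show a pairing, and no label gives one. Other alternatives were scaling by median of ratios or total coverage, no filter, pseudocounts of 0.1 and 2, 1 fit of all 12 libraries, quality weights, each library left out and, chosen after seeing the data, knockout libraries 1 and 2 or 3 and 4 left out.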

Additional observations from a re-analysis of the deposited data

Results flagged for a closer look

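E2f4 in Eμ-Myc library 1, at a scaled coverage of 145, stood apart from the other 3 Eμ-Myc libraries at 160, 163 and 163. Its gap to the nearest was 0.835 of the group's range, above Dixon's 95% critical value for 4 samples. This was the 1 group of 30 (10 genes in 3 groups) that passed, and chance flags about 1 in 20 groups. The cause was not tested.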

How the results depend on the processing

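All 9 calls of Eμ-Myc against WT held in every alternative run; total coverage scaling moved the median of all genes to −0.19 there and to −0.17 for the knockout against WT. E2f5 in Eμ-Myc against WT was −0.20 with total coverage scaling, 0.01 with quality weights and −0.09 to 0.03 with 1 library left out. None of these was a call. For the knockout against Eμ-Myc, 9 members were called with quality weights and 5 without knockout libraries 1 and 2. E2f3, E2f7 and Tfdp1 turned to 0.02, 0.01 and 0.00 with median of ratios and to 0.02, 0.02 and 0.01 with total coverage. With quality weights E2f1, E2f2, E2f3, E2f7 and Tfdp1 turned to 0.32, 0.13, 0.39, 0.32 and 0.45, and without knockout libraries 1 and 2 to 0.33, 0.14, 0.45, 0.44 and 0.58. Without 3 and 4, E2f4, E2f5, E2f6, E2f8 and Tfdp2 turned to −0.35, −0.18, −0.28, −0.47 and −0.24. With 1 library left out, the range was −0.34 to 0.07 for E2f1, −0.16 to 0.17 for E2f3, −0.11 to 0.20 for E2f4, −0.08 to 0.20 for E2f6, −0.17 to 0.20 for E2f7, −0.16 to 0.25 for E2f8, −0.22 to 0.25 for Tfdp1 and −0.10 to 0.13 for Tfdp2. E2f2 ran from −0.30 to −0.01 and E2f5 from 0.01 to 0.26, without a change of sign. For the knockout against WT, E2f5 was −0.04 with total coverage, −0.21 without knockout libraries 3 and 4 and −0.01 to 0.24 with 1 library left out; it was called with quality weights (0.45) and without knockout libraries 1 and 2 (0.43). Members called there ran from 6 to 10 over all alternatives.

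With the replicate block, 9 members were called for Eμ-Myc against WT, 0 for the knockout against Eμ-Myc and 7 for the knockout against WT (E2f3 1.04 and E2f4 0.83 lost), and the block changed no other member's call. Genes called over the whole table in the knockout against WT were 3718, and 1863 with the block, 5982 in 1 fit of all 12 libraries, 10511 with quality weights, 601 to 6628 with 1 library left out, 8612 without knockout libraries 1 and 2 and 1323 without 3 and 4. Against Eμ-Myc the count of 1 became 7456, 3489 and 524 under the last-named weights and removals. With quality weights, 42 of 43 G1/S, 17 of 18 G2/M, 7 of 11 pocket, 8 of 12 E2F6 partner and 11 of 16 upstream genes were called against Eμ-Myc, all higher but 1 pocket and 3 upstream genes. The last 3 lists gave 4, 4 and 6 higher and 0, 0 and 1 lower without knockout libraries 1 and 2, and 0, 0 and 1 higher and 1, 0 and 3 lower without 3 and 4. Of all genes, 31.1% were called higher and 28.2% lower against Eμ-Myc with quality weights. The shares were 12.2% and 16.3% without libraries 1 and 2, and 2.26% and 1.95% without 3 and 4. Against WT, the pocket list gave 10 of 11 with quality weights, 3 without knockout libraries 3 and 4 and as few as 2 with 1 library left out. The E2F6 partners gave 9, 1 and 0 there, and 7 without knockout libraries 1 and 2. The upstream list fell from 12 to 7 with 1 library left out. With quality weights 5278 of all 12710 genes were called higher than in WT and 5233 lower. Without knockout libraries 1 and 2 the counts were 4387 and 4225 of 12311, and without 3 and 4 they were 1028 and 295 of 12473. Most genes were called in the first 2 of these fits, so nothing is read from the list counts there. The causes were not tested.

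With 4 libraries a group and unknown read depth, differences smaller than the printed intervals could not be resolved, and low genes such as E2f7 in WT depend most on the pseudocount.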
